A study of Homo sapiens with 4 samples.

Results

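Kinetochore and spindle checkpoint genes were followed in metastatic breast cancer cells after knockdown of the transcription factor SOX4. The set held 33 genes, chosen by name for their known function at the centromere, the kinetochore, the spindle checkpoint or in the chromosomal passenger complex. They were chosen with earlier results of these data known, so shares set beside all genes describe the set and do not test it. All 33 had a probe detected on each of the 4 arrays, out of 11389 named genes measured. The cells were MDA-LM2, lung-colonising descendants of MDA-MB-231, a human breast cancer line. Total RNA was taken 48 h after lipofection with siRNA against SOX4 (siSOX4, 2 samples) or with control siRNA (siControl, 2 samples), and was hybridised to single-colour Illumina expression BeadChips. Both groups shared the cell line, the medium and the transfection reagent and differed in the siRNA. Per the series' design text 2 siRNAs against SOX4 were used. The labels do not tie an siRNA to an array, so the spread between the siSOX4 samples may also hold a difference between siRNAs. Whether replicate samples were grown as separate cultures is not stated, and p-values therefore measure only how far these 4 samples spread, a spread that may be technical. In RNA from a whole culture, more cells that hold a transcript and more transcript per cell cannot be told apart.

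The kinetochore is the protein assembly that ties each chromosome to spindle microtubules. It is built in layers on nucleosomes that carry the centromeric histone CENPA, with an inner network of CENP proteins (the CCAN), an outer microtubule-binding layer made of the KNL1, MIS12 and NDC80 complexes, and a fibrous corona. Checkpoint proteins gather at unattached kinetochores and hold back the anaphase-promoting complex (APC/C) until all chromosomes are attached, while the chromosomal passenger complex corrects faulty attachments and shugoshins protect the cohesin that holds sister chromatids together. Transcripts of many of these genes are made mainly in the G2 and M phases of the cell cycle, and their combined level is widely read as a sign of proliferation in breast tumours.

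SOX4 itself was lower on both siSOX4 arrays, though not past the test. Its log2 normalized signal was 7.31 and 7.14 in siSOX4 samples 1 and 2 and 7.61 and 7.54 in siControl samples 1 and 2, a difference of -0.35 ± 0.19 (SE, n = 2 against 2, adjusted p = 0.487, limma). Between 18609 and 20292 of 47323 probes were detected per array. The siSOX4 arrays were less alike than the controls, the SD of the log2 difference over kept probes being 0.43 for siSOX4 sample 1 against 2 and 0.26 for the siControl pair. All 6 markers of the parent line (VIM, CD44, CAV1, LGALS1, KRT18 and S100A4) were detected on every array, and the estrogen receptor ESR1, the progesterone receptor PGR and the epithelial cadherin CDH1 on none. ERBB3, listed with these 3 as absent or low, had a probe detected on 1 array. Of the markers of other cells, the leukocyte genes PTPRC and CD3E and the endothelial genes CDH5 and VWF were detected on no array. The myeloid genes LYZ and CD14 were detected on all 4, with a summed normalized signal on the linear scale of 197 and 112 in siSOX4 samples 1 and 2 and 152 and 159 in the controls. Of 6 endothelial and fibroblast markers 4 were measured, with a sum of 446 and 517 in siSOX4 samples 1 and 2 and 308 and 359 in the controls. Of these 4, PECAM1 (0.63 ± 0.25) lay above both controls on both siSOX4 arrays, as did PDGFRB, whose probe was detected on only 2 of the 4 arrays (6.32 and 5.62 against 4.71 and 4.79). COL1A1, the brightest of the 4, did not, at 7.94 and 8.51 against 7.60 and 7.95. Nor did COL1A2 (-0.05 ± 0.26), also detected on only 2 arrays. A probe as dim in the controls as that of PDGFRB can be kept through the siSOX4 arrays alone. The filter can thus favour its place above the controls, and PDGFRB also enters the sums. The part of these markers in the results was not tested.

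Most kinetochore and checkpoint genes lay above the controls after siSOX4, far more in siSOX4 sample 1 than in sample 2, and none passed the test. The group difference was above 0 for 29 of 33 genes, against 48% of all genes measured, and its median was 0.43 log2 units (1.34-fold) against -0.02 over all genes. The 4 genes below 0 were ZW10, CENPH, CENPQ and MIS12. The centromeric histone gene CENPA had the largest difference, 1.08 ± 0.31, which is 2.11-fold. NDC80, the microtubule-binding subunit that names its complex, came next with 0.87 ± 0.27, followed by the cohesin protector SGO2 with 0.74 ± 0.28. At least 1.5-fold higher were 9 of 33 genes, against 5.03% of all genes. On both siSOX4 arrays 20 of the 33 genes lay above both controls (22.7% of all genes did), while 0 of 33 lay below both on both arrays (25.1% of all genes) and 13 overlapped. By limma 0 of 33 genes passed an adjusted p under 0.05, as did 0% of all genes, and the smallest adjusted p in the set was 0.235. At an unadjusted p under 0.05, 11 of 33 were higher (7.44% of all genes) and 0 lower (7.39% of all genes).

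The size of the difference was unequal on the siSOX4 arrays. In siSOX4 sample 1 the median of the 33 genes was 0.73 log2 units above the control mean (1.65-fold). There 30 genes lay above the control mean (47.2% of all genes), 28 lay above both controls (38.4% of all genes) and 8 lay at least 2-fold above the control mean (2.69% of all genes). In siSOX4 sample 2 the median was 0.16 (1.12-fold). There 27 genes lay above the control mean (50% of all genes), 22 lay above both controls (39.3% of all genes) and 0 lay at least 2-fold above their mean (0.887% of all genes). Sample 1 was the higher of the siSOX4 samples for 30 of 33 genes, against 47.5% of all genes. The controls were not equal either: siControl sample 1 was above sample 2 for 26 of 33 genes (49.3% of all genes), with a median gap of 0.14, close to the median of siSOX4 sample 2 above the control mean. Without siSOX4 sample 1, 3 genes passed the test (11.9% of all genes did), namely CENPA, NDC80 and DSN1, all higher (5.97% of all genes) and 0 lower (5.96%). Without siSOX4 sample 2, 22 genes passed (24.7% of all genes), 21 as higher (11.5%) and DSN1 as lower (13.2%). In these fits the lone siSOX4 sample is assumed to vary like the controls.

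**Figure D1:**
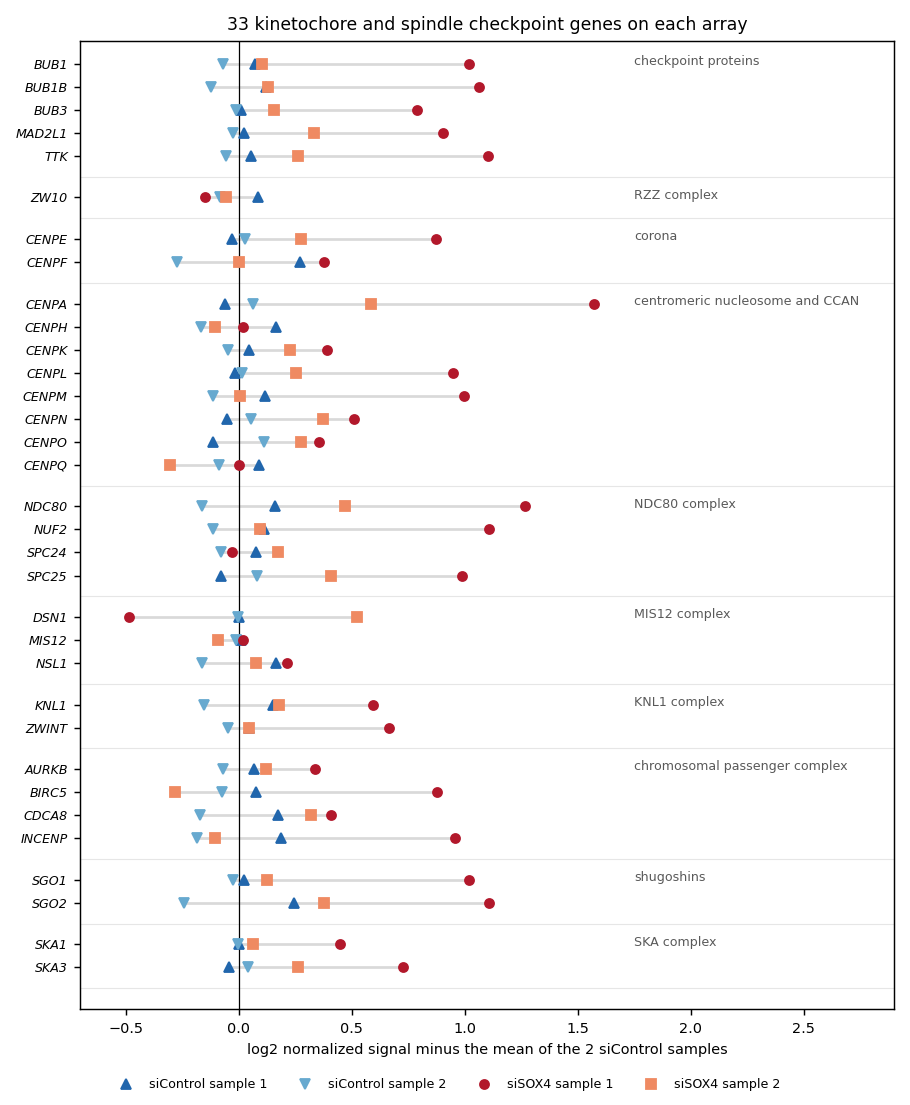
Each row is 1 of the 33 genes, grouped by sub-complex, and the points give its log2 normalized signal on each of the 4 arrays minus the mean of the 2 siControl arrays. In most rows siSOX4 sample 1 (red circles, median 0.73) lies to the right, while siSOX4 sample 2 (orange squares, median 0.16) sits closer to the controls (blue triangles).

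**Figure D2:**
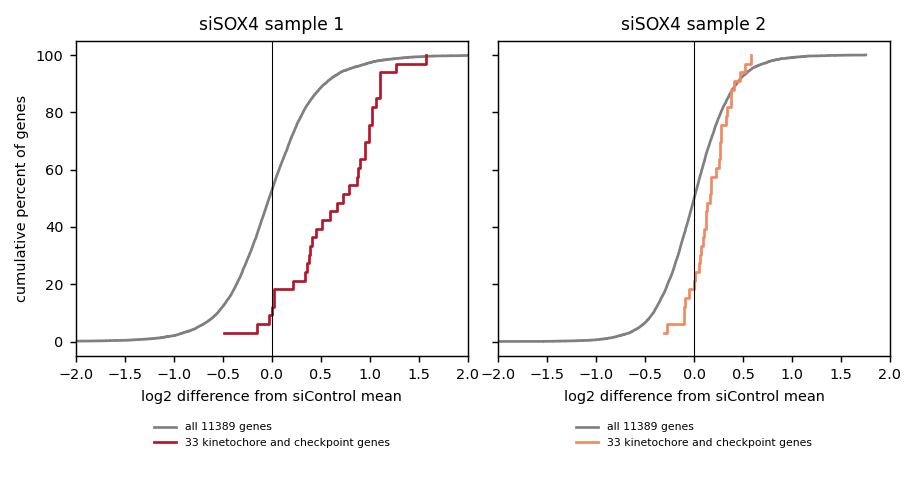
Cumulative percent of genes (y axis) by log2 difference from the siControl mean (x axis) for each siSOX4 sample, with the 33 genes in colour and all 11389 genes in grey. The coloured curve lies well to the right of the grey one in siSOX4 sample 1 and only slightly in siSOX4 sample 2.

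Promoter sequences are shown for the 3 genes of largest and the 2 of smallest absolute group difference, to set what precedes a gene's start beside how far its signal differed. They are the 250 bases before the RefSeq start (GRCh38.p14), 5′ to 3′ on the gene's strand, and for genes with several listed starts the one furthest upstream was taken. Capitals mark matches on either strand to TTTGAA (a form of the cell cycle genes homology region, bound by the DREAM and MuvB complexes), CCAAT (the box bound by NF-Y) or ACAANG (a core of SOX factor sites, N being any base). None of these matches overlap. The windows lie at chr2:26785806-26786055 (CENPA, plus strand), chr18:2571307-2571556 (NDC80, plus strand), chr2:200525892-200526141 (SGO2, plus strand), chr20:36773764-36774013 (DSN1, minus strand) and chr17:5486124-5486373 (MIS12, plus strand).
CENPA: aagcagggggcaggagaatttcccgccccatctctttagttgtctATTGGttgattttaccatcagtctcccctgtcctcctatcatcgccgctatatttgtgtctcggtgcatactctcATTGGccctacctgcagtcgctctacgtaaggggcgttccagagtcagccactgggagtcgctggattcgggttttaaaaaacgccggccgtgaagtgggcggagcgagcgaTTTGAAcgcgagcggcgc
NDC80: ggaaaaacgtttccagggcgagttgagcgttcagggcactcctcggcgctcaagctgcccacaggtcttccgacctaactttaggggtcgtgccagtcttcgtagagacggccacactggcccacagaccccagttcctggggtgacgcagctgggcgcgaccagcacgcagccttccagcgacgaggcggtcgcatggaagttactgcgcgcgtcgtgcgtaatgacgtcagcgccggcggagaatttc
SGO2: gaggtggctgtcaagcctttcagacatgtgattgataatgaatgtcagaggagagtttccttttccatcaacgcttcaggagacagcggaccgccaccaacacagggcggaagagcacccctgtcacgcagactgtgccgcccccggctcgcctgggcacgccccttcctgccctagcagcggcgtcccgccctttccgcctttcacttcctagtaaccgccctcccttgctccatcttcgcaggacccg
DSN1: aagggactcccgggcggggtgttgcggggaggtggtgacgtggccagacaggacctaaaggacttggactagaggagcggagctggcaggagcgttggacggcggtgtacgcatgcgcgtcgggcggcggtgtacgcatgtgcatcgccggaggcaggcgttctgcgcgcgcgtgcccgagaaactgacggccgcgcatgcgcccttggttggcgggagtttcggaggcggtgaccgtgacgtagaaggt
MIS12: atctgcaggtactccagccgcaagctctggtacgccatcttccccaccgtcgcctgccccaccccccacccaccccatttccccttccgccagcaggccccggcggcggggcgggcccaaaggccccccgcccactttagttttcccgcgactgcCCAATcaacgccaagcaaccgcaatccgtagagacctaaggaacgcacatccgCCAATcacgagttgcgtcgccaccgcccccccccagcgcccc
CENPA held 1 TTTGAA match, its first base 18 bases before the start, and 2 CCAAT matches, both on the opposite strand. MIS12 held 2 CCAAT matches, and the windows of NDC80, SGO2 and DSN1 held no match to any of the 3 motifs.

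Over the 26 genes of the set with a promoter entry, TTTGAA stood in 7 windows (26.9%, against 13.6% of 27305 genes) and CCAAT in 16 (61.5%, against 33% of them). At least 2 CCAAT matches stood in 10 windows, where 10.0% of all genes had as many. ACAANG stood in 1 window, that of ZWINT (3.85%, against 31.2%). The shares of all genes are over the 27305 promoter entries, measured in these cells or not, and windows were not matched for base composition. Whether these gaps are particular to the set was not tested. The median group difference was 0.43 log2 units for the 7 genes with TTTGAA and 0.31 for the 19 without, and 0.36 for the 16 with CCAAT and 0.53 for the 10 without. The ranges overlapped in both cases, from -0.10 to 1.08 with TTTGAA and from -0.15 to 0.87 without it.

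All 5 checkpoint proteins, each read from its kept probe of highest mean signal, lay above both controls on both siSOX4 arrays (22.7% of all genes). Their median difference was 1.02 in siSOX4 sample 1 and 0.16 in sample 2. BUB1, the kinase that marks centromeric chromatin and starts checkpoint assembly, had a log2 signal of 10.45 and 9.53 in siSOX4 samples 1 and 2 and of 9.50 and 9.36 in siControl samples 1 and 2, a difference of 0.56 ± 0.28. BUB1B encodes BUBR1, a part of the complex that inhibits the APC/C. Its signals were 8.61 and 7.67 after siSOX4 and 7.66 and 7.42 in the controls, so that siSOX4 sample 2 and siControl sample 1 were all but equal. BUB3, the partner of both, was the brightest probe of the group, with 12.63 and 12.00 after siSOX4 and 11.85 and 11.83 in the controls (0.47 ± 0.20). MAD2L1 encodes MAD2, the checkpoint protein that captures the APC/C activator CDC20. It gave 11.38 and 10.81 after siSOX4 and 10.50 and 10.45 in the controls, and the difference of 0.62 ± 0.20 had an adjusted p of 0.282. A further kept probe of MAD2L1 gave only 0.29, with 0.53 and 0.05 on the siSOX4 arrays. On that probe siSOX4 sample 2 lay between the controls, at 0.09 and -0.09. TTK, also called MPS1, is the kinase at the top of the checkpoint, and its signals were 10.06 and 9.22 after siSOX4 and 9.01 and 8.90 in the controls (0.68 ± 0.27). In each of these 5 genes the gap between the siSOX4 samples, 0.57 to 0.93, exceeded the gap between the controls, 0.02 to 0.25. The siSOX4 gap was also the larger for 27 of the 33 genes and for 7714 of all 11389 genes.

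ZW10 belongs to the RZZ complex, which brings MAD1, MAD2 and dynein to the kinetochore, and it did not follow the checkpoint kinases. It gave 9.21 and 9.30 after siSOX4 and 9.44 and 9.27 in the controls, a difference of -0.10 ± 0.16 with a 95% interval from -0.48 to 0.28. Of the corona proteins, the kinesin CENPE gave 9.73 and 9.13 after siSOX4 and 8.82 and 8.88 in the controls (0.57 ± 0.22), both siSOX4 samples being above both controls. CENPF, a large farnesylated protein of the corona, gave 9.99 and 9.61 against 9.88 and 9.34 (0.19 ± 0.23). Its controls were 0.54 apart, the widest gap between controls in the set, and siSOX4 sample 2 lay between them.

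At the centromere, CENPA had a larger difference than any of the CCAN genes in the set. Its signals were 9.14 and 8.16 in siSOX4 samples 1 and 2 and 7.51 and 7.63 in the controls. It lay 1.57 and 0.59 log2 units above the control mean, the highest value of the set on both siSOX4 arrays. It had rank 90 of 11389 genes by group difference, and a further kept probe of CENPA gave 1.20, with 1.84 and 0.55 on the siSOX4 arrays.

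The 7 CCAN genes form the bridge between CENPA chromatin and the outer kinetochore. Of these, 4 lay above both controls on both siSOX4 arrays (22.7% of all genes). CENPN, which reads the CENPA nucleosome, was nearly equal on both, at 9.93 and 9.79 after siSOX4 against 9.36 and 9.47 in the controls (0.44 ± 0.16). CENPL, its direct partner, gave 8.52 and 7.83 against 7.56 and 7.59 (0.60 ± 0.25). CENPK gave 9.85 and 9.68 against 9.50 and 9.41 (0.31 ± 0.16), and CENPO 6.64 and 6.56 against 6.17 and 6.40 (0.31 ± 0.21). These 4 thus differ in how much the siSOX4 samples disagreed: by 0.69 for CENPL and by 0.08 to 0.16 for CENPN, CENPK and CENPO. CENPM, a small GTPase-like subunit, gave 9.45 in siSOX4 sample 1 but 8.46 in sample 2, the latter between the controls at 8.57 and 8.34 (0.50 ± 0.31). CENPH, a subunit of the same group as CENPK, gave 5.70 and 5.58 against 5.85 and 5.52 (-0.04 ± 0.21), at a signal only 1.45 to 1.61 times the inferred background. CENPQ, which works with CENPO, gave 8.24 and 7.93 against 8.32 and 8.15 (-0.15 ± 0.20), the lowest difference of the set.

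The NDC80 complex joins the kinetochore to microtubules through a dimer of NDC80 and NUF2, while SPC24 and SPC25 anchor it to the inner layers. Its 4 genes had a median difference of 1.05 in siSOX4 sample 1 and 0.29 in sample 2. NDC80 gave 9.94 and 9.15 after siSOX4 and 8.84 and 8.52 in the controls, and NUF2 9.82 and 8.81 against 8.83 and 8.60. In NDC80 both siSOX4 samples were above both controls, whereas NUF2 in siSOX4 sample 2 lay just below siControl sample 1 (0.60 ± 0.31). SPC25 gave 8.06 and 7.48 against 6.99 and 7.15, a difference of 0.70 ± 0.24. SPC24, which binds SPC25, gave 7.31 and 7.52 against 7.42 and 7.26, and its difference of 0.07 ± 0.20 had a 95% interval from -0.38 to 0.53.

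The MIS12 complex, the hub that links the CCAN to NDC80, showed no common direction. MIS12 gave 10.47 and 10.36 after siSOX4 and 10.46 and 10.44 in the controls (-0.04 ± 0.15, 95% interval -0.37 to 0.30). NSL1 gave 10.36 and 10.22 against 10.31 and 9.98 (0.15 ± 0.17). DSN1, the subunit through which CCAN contacts are regulated by Aurora B, gave 7.39 in siSOX4 sample 1 and 8.39 in siSOX4 sample 2 against 7.87 and 7.87 in the controls. The siSOX4 samples thus lay on opposite sides of the controls, 0.49 below and 0.52 above, and their gap of 1.01 set against a gap of 0.005 between the controls. The group difference of 0.02 ± 0.31 averages these out. With siSOX4 sample 1 or 2 left out, the difference is only the value of the remaining siSOX4 sample, 0.52 or -0.49.

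KNL1, the scaffold on which BUB1 and BUBR1 gather, gave 6.14 and 5.72 after siSOX4 and 5.70 and 5.39 in the controls (0.39 ± 0.24), at 1.39 to 1.77 times the inferred background. ZWINT, its binding partner and the link to the RZZ complex, gave 10.23 and 9.61 against 9.61 and 9.51 (0.36 ± 0.22). In both genes siSOX4 sample 2 lay close to siControl sample 1. The SKA complex supports the hold of NDC80 on microtubules. Its 2 genes in the set lay above both controls on both siSOX4 arrays (22.7% of all genes). SKA3 gave 8.66 and 8.20 against 7.89 and 7.98 (0.49 ± 0.21), and SKA1 7.19 and 6.81 against 6.75 and 6.74 (0.25 ± 0.22).

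**Figure D3:**
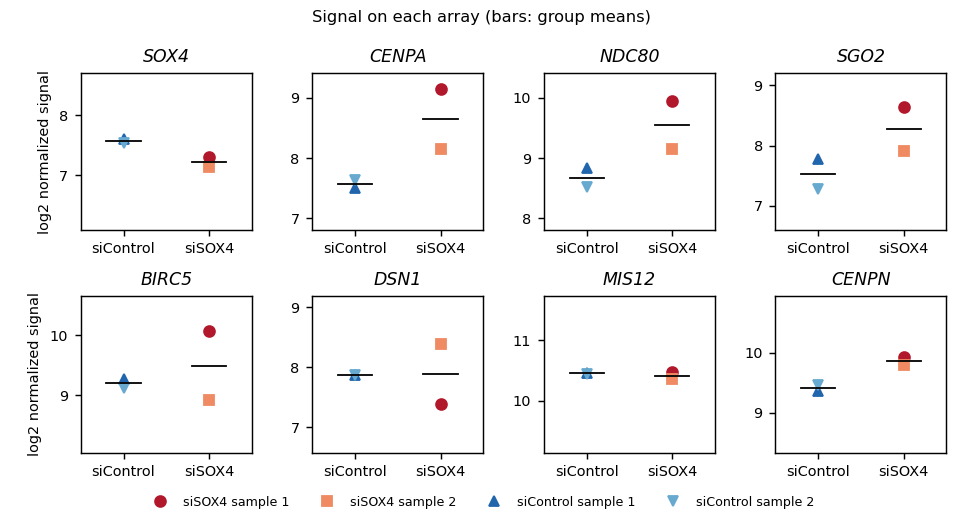
Log2 normalized signal on each array (y axis, each panel spanning the same number of log2 units) for SOX4 and for 7 genes of the set, in the siControl and siSOX4 groups, with bars at the group means. SOX4 is lower on both siSOX4 arrays, CENPA and NDC80 are higher on both, BIRC5 and DSN1 have siSOX4 samples on opposite sides of the controls, and MIS12 is level.

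In the chromosomal passenger complex the siSOX4 arrays were close for some genes and far apart for others. AURKB, the Aurora B kinase that corrects attachments, gave 10.23 and 10.01 after siSOX4 and 9.96 and 9.82 in the controls (0.23 ± 0.16). CDCA8, also called borealin, gave 9.54 and 9.46 against 9.31 and 8.96 (0.36 ± 0.18). AURKB and CDCA8 both lay above both controls on both siSOX4 arrays (22.7% of all genes). BIRC5, or survivin, which brings the complex to the centromere and is also known as an apoptosis inhibitor, gave 10.08 in siSOX4 sample 1 and 8.92 in sample 2 against 9.28 and 9.12. It was thus above both controls on one array and below both on the other, 1.16 log2 units apart, the widest gap between siSOX4 samples in the set. A further probe gave 1.17 and -0.18. INCENP, the scaffold that activates AURKB, gave 7.86 and 6.80 against 7.09 and 6.72, with siSOX4 sample 2 between the controls (0.43 ± 0.34). Without siSOX4 sample 1 the difference was -0.28 for BIRC5 and -0.10 for INCENP.

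Both shugoshins, which protect centromeric cohesin until anaphase, lay above both controls on both siSOX4 arrays (22.7% of all genes). SGO1, the mitotic form, gave 8.64 and 7.74 after siSOX4 and 7.64 and 7.59 in the controls (0.57 ± 0.29). A further probe of SGO1 gave 0.62. SGO2 gave 8.64 and 7.91 against 7.77 and 7.29 (0.74 ± 0.28, adjusted p = 0.339), with controls 0.49 apart.

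**Figure D4:**
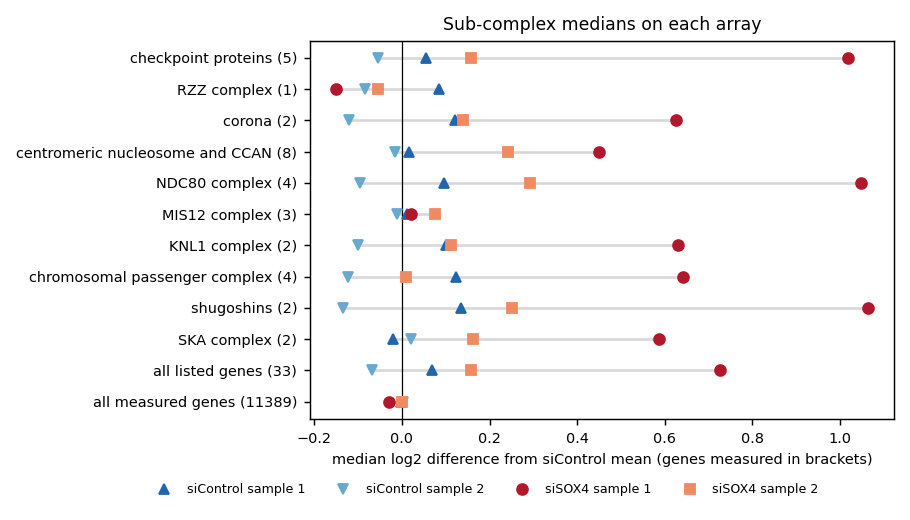
Median log2 difference from the siControl mean (x axis) over the measured genes of each sub-complex, for each of the 4 arrays, with all 33 listed genes and all 11389 measured genes below. In siSOX4 sample 1 the checkpoint proteins, the NDC80 complex and the shugoshins have medians of 1.02, 1.05 and 1.06, while the MIS12 complex has 0.02 and ZW10 alone stands at -0.15.

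The further probes of the same genes mostly gave the direction of the probe used. Of 57 probes annotated to the set, 48 were kept, and 11 genes had more than 1 kept probe. Of the 15 further kept probes 13 had the sign of the gene's main probe. The exceptions were dim probes of NSL1 (-0.04) and ZWINT (-0.02), the latter with siSOX4 samples at -0.41 and 0.37. The BUB3 probes gave 0.58, 0.75 and 0.29 beside the main 0.47, and those of CENPM 0.75 and 0.80 beside 0.50. In the authors' deposited table, which holds the ratio of the siControl mean to the siSOX4 mean without background correction, 20 of the 33 genes matched 1 row each. Of these, 17 had a ratio below 1, meaning a higher signal after siSOX4. The share of all genes with a ratio below 1 in that table was not computed, so this count describes the matched genes only. The remaining genes of the set, CENPA among them, matched no single row. The ratios come from the same 4 arrays and are no separate measurement. In the authors' deposited table the ratio was 0.588 for NDC80, 0.654 for TTK and 0.936 for DSN1, and it was above 1 for ZW10 (1.09), CENPQ (1.12) and MIS12 (1.05).

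Other genes of mitosis and regulators of G2 and M phase genes, in 9 lists of 89 genes of which 81 were measured, had a lower pooled median. The lists were uneven. In siSOX4 sample 1 their medians ran from 0.01 (RZZ, corona and checkpoint partners) to 0.64 (mitotic kinases). Over the 81 genes together the median was 0.19 log2 units, with 0.29 in siSOX4 sample 1 and 0.07 in sample 2. Of the 81 genes 60 were above 0 in the group difference (48% of all genes), 33 lay above both controls on both arrays (22.7% of all genes) and 10 below both (25.1% of all genes). By limma 0 of 81 passed, with 18 higher (7.44% of all genes) and 4 lower (7.39% of all genes) at an unadjusted p under 0.05. Among the remaining CCAN genes 8 of 8 were above 0 (median 0.19), led by CENPT, which contacts NDC80 directly (0.81 ± 0.21, with 0.83 and 0.78 on the siSOX4 arrays), and CENPI (0.79 ± 0.33). The CENPA chaperone HJURP differed by 0.74 ± 0.29 and OIP5, a subunit of the Mis18 complex that prepares centromeres for CENPA, by 0.66 ± 0.22, the largest of 5 measured genes of CENPA deposition (median 0.15). SKA2 of the SKA complex differed by 0.37 ± 0.15 and PMF1 of the MIS12 complex by -0.04 ± 0.20.

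The list of RZZ, corona and checkpoint partners stood at a median of -0.03, with 4 of 10 above 0 (48% of all genes). It also holds KNTC1 and ZWILCH, which like ZW10 are subunits of the RZZ complex. KNTC1 differed by -0.01 ± 0.17 and ZWILCH by -0.08 ± 0.20. CLASP2, a microtubule plus-end protein, differed by -0.63 ± 0.20 and TRIP13, the ATPase that recycles MAD2, by 0.46 ± 0.16. Of 22 measured APC/C genes, activators and targets 16 were above 0 (median 0.19), and the APC/C subunits ANAPC15 (0.72 ± 0.30) and ANAPC16 (-0.72 ± 0.22) had the largest differences, in opposite directions. All 7 mitotic kinases were above 0 (48% of all genes), with a median of 0.27, NEK2 at 0.81 ± 0.30 and AURKA at 0.79 ± 0.30. In siSOX4 sample 1, 3 of these kinases lay at least 2-fold above the control mean (2.69% of all genes). For NEK2 the siSOX4 samples stood at 1.34 and 0.28 and for AURKA at 1.31 and 0.27. Cohesin genes had a median of 0.22 with 6 of 9 above 0, led by STAG2 (0.53 ± 0.18) and CDCA5, which stabilises cohesin on chromatin (0.40 ± 0.23). All 7 measured condensin genes were above 0 (48% of all genes), with a median of 0.26, led by NCAPD2 (0.80 ± 0.20) and NCAPG (0.52 ± 0.21).

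**Figure D5:**
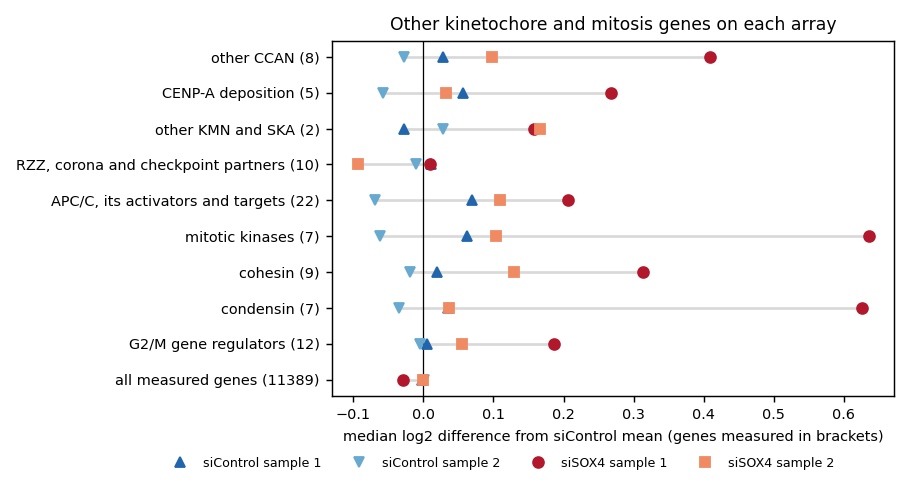
Median log2 difference from the siControl mean (x axis) on each of the 4 arrays for 9 lists of other mitosis genes and G2/M gene regulators, with all measured genes at the bottom. Mitotic kinases and condensin reach medians of 0.64 and 0.63 in siSOX4 sample 1, against 0.10 and 0.04 in siSOX4 sample 2, and the partners of the RZZ complex, corona and checkpoint stay near 0.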

How the data were processed

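Total RNA of 4 MDA-LM2 samples was measured on 1 array each, and groups came from the sample titles. Per the file headers, the deposited signals give for each of 47323 probes a linear intensity and a detection p-value per array, neither background-subtracted nor scaled between arrays as its values show. In the deposited series matrix each value is a ratio, the signal over the median of its array. The authors' deposited fold table holds the ratio of the siControl mean to the siSOX4 mean, found by recomputing it. No source used here names the scanner or its software.

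Intensities were background-corrected (normexp, with background inferred from the detection p-values), given an offset of 16, quantile-normalized and put on the log2 scale with neqc of limma 3.58.1 in R 4.3.3. A probe was kept when 2 or more of the 4 arrays gave it a detection p-value below 0.05 (20118 probes, of which 14970 carried a gene symbol in the platform annotation). Each gene was read from its kept probe of highest mean signal, which gave 11389 genes. The groups were compared with lmFit and eBayes (trend), p-values adjusted by Benjamini-Hochberg across every kept probe, a threshold of 0.05 and 95% intervals. An exact permutation test of 2 against 2 arrays cannot go below p = 0.333 and was not used. Only 2 arrays per group limit the precision. The code was tested on simulated data.

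The genes and lists were chosen with earlier results of these data known. All 33 genes are named, with the 2 of largest absolute difference from each other list. Named beyond this rule are FOXM1, RBL2, E2F4, KNTC1 and ZWILCH. Promoters are RefSeq sequences (GRCh38.p14), with entries for 26 of the 33 genes, and both strands were searched. Same-numbered samples of the groups were not treated as paired, since the labels mark no shared batch. The alternatives tried were no background correction, an offset of 50, median scaling, the series matrix values, other filters on dim probes, the mean of a gene's kept probes, eBayes without trend, a replicate block and leaving out each array.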

Additional observations from a re-analysis of the deposited data

How the results depend on the processing

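The median difference over the 33 genes was 0.43 log2 units and lay between 0.30 and 0.43 under 9 alternatives that kept all arrays, and none of the 33 passed the test under any of these. Over the whole array 0 genes passed, against 3 with median scaling, 1 with the series matrix values, 77 with no filter on dim probes and 133 with a replicate block. With only 2 pairs the block rests on shared numbers alone (correlation of same-numbered deviations 0.11), and 0 of the 33 genes passed with it. With the series matrix values the median was 0.13 for the other outer kinetochore and SKA genes and 0.045 for the G2/M gene regulators, and with the mean of a gene's kept probes it was 0.22 for the former. The causes were not tested.

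With 1 array left out at a time, calls over the whole array ranged from 0 to 2811 and among the 33 genes from 0 to 22, and the median over the 33 from 0.16 (without siSOX4 sample 1) to 0.73 (without siSOX4 sample 2). Medians ranged from 0.16 to 1.02 for checkpoint proteins, 0.24 to 0.45 for CENPA and the CCAN, 0.29 to 1.05 for the NDC80 complex, -0.018 to 0.075 for the MIS12 complex, 0.0084 to 0.64 for the chromosomal passenger complex, 0.25 to 1.06 for shugoshins, 0.10 to 0.41 for the other CCAN genes, 0.032 to 0.27 for CENPA deposition, 0.11 to 0.26 for the APC/C list, -0.093 to 0.010 for partners of the RZZ complex and corona, 0.10 to 0.64 for mitotic kinases, 0.13 to 0.31 for cohesin, 0.037 to 0.63 for condensin and 0.055 to 0.19 for G2/M gene regulators. Calls reached 4, 2, 1, 4, 13, 5, 3, 4 and 5 genes in the lists of other CCAN, CENPA deposition, other outer kinetochore, RZZ partner, APC/C, kinase, cohesin, condensin and G2/M regulator genes, each from 0. In the same order the lists held 8, 5, 2, 10, 22, 7, 9, 7 and 12 measured genes. These highest counts all came without siSOX4 sample 2, where 24.7% of all genes were called. That fit rests on a lone siSOX4 sample, and no list was tested against that share. Signs turned for CENPF (-0.081 to 0.46), CENPH (-0.21 to 0.12), CENPQ (-0.30 to 0.0018), SPC24 (-0.031 to 0.18), DSN1 (-0.49 to 0.52), MIS12 (-0.093 to 0.020), NSL1 (-0.018 to 0.31), BIRC5 (-0.28 to 0.88) and INCENP (-0.10 to 0.96). KNL1 and CENPH lay nearest to background.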

Other observations

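Regulators of G2 and M phase genes showed a median difference of 0.12 log2 units, with 8 of 12 measured genes above 0 (48% of all genes). On both siSOX4 arrays 5 lay above both controls (22.7% of all genes) and 3 below both (25.1% of all genes), the latter a share close to that of all genes. NFYA, the CCAAT-binding subunit of NF-Y, differed by 0.59 ± 0.21 (adjusted p = 0.307, limma), with 0.67 and 0.51 on the siSOX4 arrays. RBBP4, a histone-binding subunit of the DREAM and MuvB complexes, differed by -0.49 ± 0.20, with -0.35 and -0.63. FOXM1, a transcription factor of late cell cycle genes that was chosen after its values were seen, differed by 0.43 ± 0.16 and was close to equal on the siSOX4 arrays, at 0.41 and 0.45. The genes below both controls on both siSOX4 arrays were RBBP4, RBL2 and E2F4. RBL2 differed by -0.39 ± 0.20, with -0.55 and -0.24, and E2F4 by -0.31 ± 0.20, with -0.54 and -0.07.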
